A study of Rattus norvegicus with 10 samples.

Results

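The microRNAs described here are those of the rat NanoString panel whose names carry a number from 3540 to 3599, with any letter or arm. Of the 420 microRNA probes on the panel, 65 met this rule, and they carry 48 different numbers. Detection in a sample required a count over the mean + 2 SD of the 8 Negative probes of the same sample, which are designed to have no target. Under that rule 31 of the 65 members were detected in 2 or more of the 10 samples.

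The samples were tissue punches of the dorsal vagal complex, a hindbrain region that holds the motor neurons of the vagus nerve to the heart and gut, from male Sprague-Dawley rats, 1 sample per animal. An age-matched control group (AMC, 3 animals) was compared with animals that received remote ischemic preconditioning, a brief ischemia of a distant tissue (RIPC, 2 animals), a tied-off left anterior descending coronary artery (LAD, 3 animals), or both, with RIPC 2 h before the artery was tied (RIPC+LAD, 2 animals). Collection was at 24 h after the ligation, and the labels give no separate time for the animals without one. The ages of the animals and whether the AMC animals had a sham operation are not given in the labels. Animals LAD 2 and LAD 3 share the first part of their animal number, as do AMC 2 and AMC 3 and both RIPC+LAD animals, and no such prefix spans groups, so prefix and treatment cannot be told apart. A punch holds many cell types, and fewer cells of a type and less RNA per cell cannot be told apart in it.

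A microRNA is cut from a hairpin transcript, and either arm of the hairpin (5p or 3p) can be loaded into an Argonaute protein, where the bases at positions 2 to 8, the seed, select target mRNAs. Numbers in microRNA names follow the order of registration and say nothing about function, and the names in this range were given to rat hairpins. A hairpin stays a hairpin when the opposite DNA strand is read, so an antisense transcript of a microRNA gene can itself yield a microRNA, whose seed need not be that of the gene it faces.

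The mature sequences of the members that the results turn on are printed first, because no seed among them is shared with another. They are the microRNAs with the highest levels and those with the smallest p-values, from RefSeq on assembly GRCr8, written 5′ to 3′ with the seed in capitals.
miR-3590-5p: uGCCCUUUuaacauugcacug
miR-3594-5p: cCCAGGGCagagcagugugaa
miR-3596c: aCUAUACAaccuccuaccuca
miR-3595: gUGGAUUUuccucuacgau
miR-3563-5p: cGGUUUACcgucccacauac
miR-3592: aAGUGUUGuccgugaaugauu
miR-3589: gAGGAAACcagcaaguguugac
miR-3578: gCGAAUAUaacacggucgaucu
miR-3571: uACACACUucuuuacauuccaua
miR-3581: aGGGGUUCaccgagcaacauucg
miR-3569: gGAGGACAgcagacucagguc
miR-3580-3p: uGACUAGGguaguaugaguaga
In all, 60 of the 65 members were matched to a mature sequence, 52 by name and 8 through a gene synonym, such as miR-3581, which RefSeq lists as miR-409b, and miR-3563-5p, listed as miR-299b-5p. The sequences run from 17 to 24 bases. The 60 carry 60 distinct seeds, so the number range is no seed family. With other RefSeq mature microRNAs 4 members share a seed. MiR-3573-5p shares it with miR-423-5p, miR-3596d with the 3p arms of 5 let-7 and miR-98 hairpins, and each arm of miR-3563 with the same arm of miR-299a, whose gene it faces. The likeness to miR-299a goes beyond the seed. MiR-3563-3p equals the start of miR-299a-3p over its whole length, and miR-3563-5p equals miR-299a-5p at every base but its first. Whether the miR-3563 probes also read miR-299a was not tested, so their counts cannot be assigned to either gene alone. No sequence is printed for miR-3593-5p.

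What many members do share is where they lie. Of the 63 members with a gene location, 30 lie on the strand opposite another microRNA gene, and each of these 30 holds a run of 12 or more bases that is an exact reverse complement of that gene's mature microRNA. Counted by gene, 28 of 51 member genes (54.9%) face another microRNA gene in this way, against 30 of 370 other microRNA genes in the table (8.11%) once the genes that face a member are set aside. The pairs below show the complementary bases in capitals, each member above the microRNA of the opposite strand.
miR-3590-5p: UGCCCUUUUAACAUUGCACUG
miR-130a-3p: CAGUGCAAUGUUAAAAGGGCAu
miR-3596c: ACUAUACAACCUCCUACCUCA
let-7e-5p: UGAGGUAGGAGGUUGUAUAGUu
miR-3592: AAGUGUUGUCCGUGAAUGAUU
miR-382-3p: AAUCAUUCACGGACAACACUU
miR-3589: gaGGAAACCAGCAAGUGUUGAC
miR-505-3p: GUCAACACUUGCUGGUUUCC
miR-3571: UACACACUUCUUUACAUUCCAua
miR-1-3p: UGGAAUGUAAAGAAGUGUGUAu
MiR-3590-5p lies at chr3:90229241-90229261 on the plus strand and is complementary over all 21 of its bases to miR-130a-3p. MiR-3596c, at chr1:67350243-67350263 on the minus strand, is complementary over all 21 bases to let-7e-5p, a member of the let-7 family that acts in developmental timing. MiR-3571 lies opposite miR-1, the muscle microRNA, and miR-3546 opposite miR-208a, which is encoded in a cardiac myosin gene.

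Of the opposite-strand members, 9 lie between Dlk1 and Dio3 on chromosome 6, an imprinted region whose large maternally expressed microRNA cluster is active in brain. They include miR-3592 opposite miR-382, miR-3595 opposite miR-376a, miR-3578 opposite miR-369, miR-3581 opposite miR-409, miR-3579 opposite miR-380 and miR-3563-5p opposite miR-299. Another 21 opposite-strand members lie elsewhere, and 33 face no other microRNA gene. Among those 33, miR-3594 lies 2050 bases from miR-3562 on chromosome 10. MiR-3580, miR-3585 and miR-3551 lie on the X chromosome within 4958 bases of miR-465, miR-201 and miR-471, members of a microRNA group that in mouse is expressed in testis.

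Counts of the members were low. The highest single count was 116, for miR-3590-5p in AMC 1, and the median over members of the mean count was 4.6, against 10.1 over the other 355 microRNA probes. Detection reached 2 or more samples for 47.7% of members and 62.5% of the other probes. All 10 samples passed for 5 members (7.69%), which were miR-3590-5p, miR-3594-5p, miR-3593-5p, miR-3596c and miR-3595, and for 136 other probes (38.3%). At the other end 22 members passed in no sample and 12 in 1 sample. MiR-3583-3p and miR-3585-5p stood at 1, the lowest value in the file, in every sample. At the edge of the rule, the 12 members detected in 1 sample had highest counts of 5 to 10, and the 11 detected in 2 samples had highest counts of 7 to 15.

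**Figure D1:**
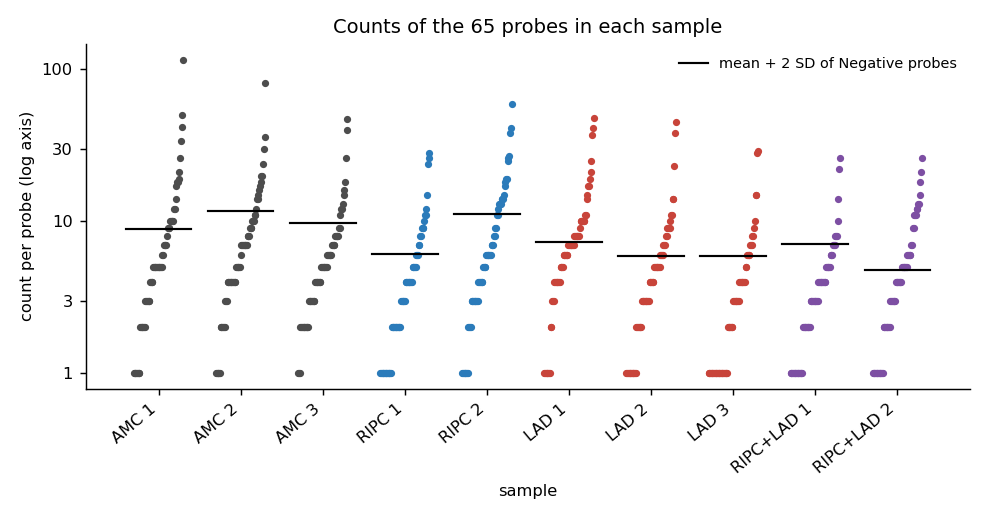
Count of each of the 65 members (points, log axis) in each of the 10 samples, with the sample's detection threshold (bar). Thresholds lie between 4.75 (RIPC+LAD 2) and 11.7 (AMC 2), most points lie under them, and the highest point is 116 in AMC 1.

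Total microRNA counts ran from 28485 in LAD 3 and 42893 in LAD 2 to between 73293 and 102824 in the other 8 samples. The members' summed share of the total was 0.708%, 0.595% and 0.441% in AMC, 0.366% and 0.823% in RIPC, 0.553%, 0.895% and 0.955% in LAD and 0.336% and 0.370% in RIPC+LAD. The shallow samples LAD 2 and LAD 3 had the largest shares and both RIPC+LAD samples lay at the low end beside RIPC 1. The Negative probes had a mean of 5.54 and 7.90 per 100000 microRNA counts in LAD 2 and LAD 3 and of 6.14 in RIPC 2, against 2.81 in LAD 1 and 3.56 and 2.82 in RIPC+LAD. The number of members detected per sample did not follow the groups. It was 21, 13 and 10 in AMC, 15 and 18 in RIPC, 26, 21 and 15 in LAD and 7 and 27 in RIPC+LAD. A count of 14 has an exact 95% Poisson interval of 7.65 to 23.5 and a count of 116 one of 95.9 to 139. These intervals cover counting error only.

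The tissue label was checked against microRNAs of other cell types. All 6 neuronal microRNAs looked for were detected in every sample and made up 10.7% to 15.0% of counts. The 6 microRNAs of choroid plexus and ciliated cells, which border the fourth ventricle, made up 1.82% to 5.91% in AMC, 2.56% to 10.02% in RIPC, 2.13% to 18.7% in LAD and 1.86% to 2.06% in RIPC+LAD, and 4 of the 6 were detected in every sample. The 3 of oligodendrocytes made up 1.42% to 3.64%, 1.26% to 3.10%, 1.99% to 5.14% and 0.982% to 1.76% in the same order. The 2 of erythrocytes stayed under 0.0490%, and miR-223 of the leukocyte list was not detected in 2 samples or more.

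MiR-3590-5p had the highest level of the 65, at 8.98 averaged over samples on a log2 scale of depth-scaled counts (log2 CPM), and ranked 98th of the 420 microRNA probes. Its counts were 116, 81 and 47 in AMC, 24 and 59 in RIPC, 41, 45 and 15 in LAD and 14 and 13 in RIPC+LAD. Both RIPC+LAD samples lay below every other sample, and the remaining groups overlapped. The AMC mean was 9.67 ± 0.60 log2 CPM (SD, n = 3) and the LAD mean 9.27 ± 0.62 (SD, n = 3). RIPC averaged 8.87 ± 0.80 (SD, n = 2) and RIPC+LAD 7.59 ± 0.20 (SD, n = 2).

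MiR-3594-5p gave counts of 50, 36 and 40 in AMC, 28 and 41 in RIPC, 25, 38 and 29 in LAD and 26 and 26 in RIPC+LAD. Both RIPC+LAD raw counts lay below every AMC and RIPC count and within the LAD range, and its mean level was 8.87 log2 CPM. After scaling for depth the RIPC+LAD samples (8.54 and 8.34 log2 CPM) lay below every AMC sample, while RIPC 1 (8.51) lay between them. MiR-3593-5p gave 42, 30 and 26 in AMC, 26 and 38 in RIPC, 48, 23 and 28 in LAD and 22 and 21 in RIPC+LAD. After scaling for depth its 3 LAD samples (8.98 to 9.95 log2 CPM) lay above all AMC, RIPC and RIPC+LAD samples (8.06 to 8.83).

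MiR-3596c gave counts of 34, 24 and 18 in AMC, 15 and 27 in RIPC, 37, 9 and 15 in LAD and 8 and 11 in RIPC+LAD. Its RIPC+LAD samples, at 7.04 and 7.25 log2 CPM, lay below all others, which overlapped one another. MiR-3595 gave 26, 15 and 16 in AMC, 9 and 19 in RIPC, 10, 10 and 10 in LAD and 10 and 12 in RIPC+LAD. The RIPC+LAD samples of miR-3595 (7.31 and 7.35 log2 CPM) lay below every AMC sample (7.47 to 8.19). No other order of groups showed in miR-3595 beyond the spread, with group means from 7.33 to 7.81 log2 CPM. MiR-3563-5p was likewise mixed, at 21, 18 and 8 in AMC, 11 and 14 in RIPC, 11, 8 and 9 in LAD and 6 and 18 in RIPC+LAD. Levels of neighbours in this order differ by less than their spread over samples, and probes can differ in efficiency, so the order is one of probe counts.

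**Figure D2:**
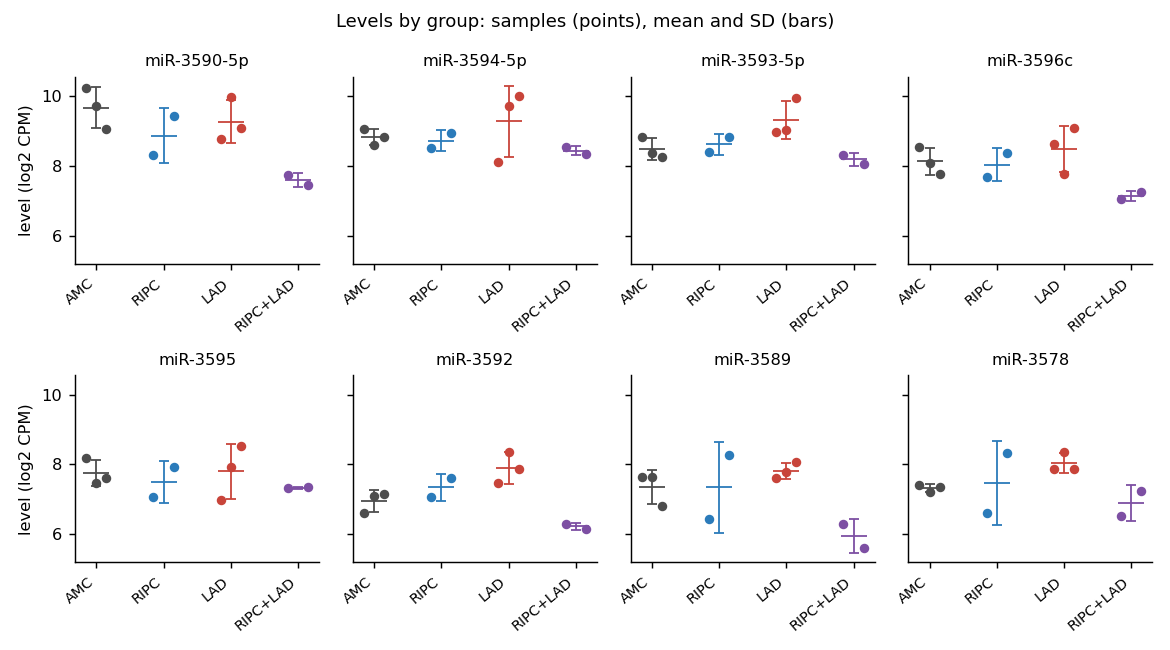
Level in log2 CPM of 8 members in each sample (points) by treatment group, with the group mean and SD (bars; n = 3, 2, 3 and 2 from left to right). The RIPC+LAD samples lie lowest for miR-3590-5p, miR-3596c, miR-3592 and miR-3589. Those of miR-3595 lie below the AMC samples and within the range of the RIPC and LAD samples.

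Less abundant members gave counts near their thresholds. MiR-3592 stood at 7, 11 and 11 in AMC, 9 and 15 in RIPC, 15, 14 and 6 in LAD and 4 and 4 in RIPC+LAD, and neither RIPC+LAD sample passed its threshold. MiR-3589 stood at 17, 17 and 8 in AMC, 5 and 25 in RIPC, 17, 9 and 7 in LAD and 4 and 2 in RIPC+LAD, where again neither sample passed. Fitted fold changes of these members against RIPC+LAD therefore rest on background in that group. MiR-3578 stood at 14, 12 and 13 in AMC, 6 and 26 in RIPC, 21, 14 and 6 in LAD and 5 and 11 in RIPC+LAD, with the RIPC samples on either side of all AMC samples.

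MiR-3571 stood at 18, 20 and 5 in AMC, 8 and 17 in RIPC, 19, 7 and 6 in LAD and 4 and 5 in RIPC+LAD, so AMC 3 lay with the RIPC+LAD samples in raw count. MiR-3581 stood at 5, 8 and 3 in AMC, 8 and 19 in RIPC, 10, 7 and 4 in LAD and 5 and 9 in RIPC+LAD. No AMC sample passed the threshold for miR-3581, and RIPC 2 was its highest sample. MiR-3569 stood at 9, 7 and 8 in AMC, 4 and 14 in RIPC, 9, 9 and 4 in LAD and 2 and 5 in RIPC+LAD. MiR-3580-3p never exceeded 8, with 3, 6 and 3 in AMC, 3 and 8 in RIPC, 8, 5 and 4 in LAD and 4 and 5 in RIPC+LAD, and passed in 1 LAD and 1 RIPC+LAD sample.

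Where both arms of a hairpin were on the panel, 1 arm often carried the counts. This held for 15 hairpins, of which 4 had both arms detected in 2 or more samples, 4 the 5p arm alone, 2 the 3p arm alone and 5 neither. The 5p probe was above the 3p probe in all 10 samples for miR-3590 (mean counts of 45.5 and 7.4), miR-3593 (30.4 and 3.9), miR-3594 (33.9 and 8.4) and miR-3563 (12.4 and 4.6). The same held for miR-3583 (4.2 and 1.0), where neither arm was detected in any sample, so such an order can arise below the thresholds. The 3p probe was the higher in all 10 samples for miR-3585 (11.8 against 1.0) and miR-3580 (4.9 against 1.6). For miR-3586 and miR-3573 the arms were close, at 6.8 and 6.7 and at 5.2 and 4.8.

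Ligation alone was compared with AMC to ask which microRNAs differ after coronary occlusion. The quasi-likelihood test of edgeR with Benjamini-Hochberg adjustment called 0 of the 31 members, where 0.0% of all 253 microRNAs were called, and DESeq2 called 0 members (0.0% of all). The smallest adjusted p of a member was 0.804. At an unadjusted p under 0.05 there were 5 members, all higher in LAD, beside 5.53% of all microRNAs and 4.35% higher. They were miR-3592 (log2 fold change 1.06, SE 0.41), miR-3593-5p (0.87, SE 0.34), miR-3580-3p (1.25, SE 0.52), miR-3581 (1.14, SE 0.51) and miR-3555 (1.27, SE 0.58), whose counts never exceeded 7. Groups did not overlap for 6 members, all higher in LAD, where 5.53% of all microRNAs were higher without overlap.

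The 31 members leaned upward in LAD, with 24 higher, 7 lower and a median log2 fold change of 0.42, against -0.01 over all 253. The Negative probes moved by 0.13 and the 34 members below the detection rule by 0.50 in the same direction, and with the Negative mean of each sample subtracted the members' median was 0.62. Without the 2 shallowest samples, LAD 2 and LAD 3, the median was 0.11, miR-3592 stood at 0.64 and miR-3593-5p at 0.56. That fit leaves LAD with 1 sample, whose spread is assumed to be that of the other groups, so its p-values are not used here. Without LAD 3 alone miR-3593-5p stood at 0.57. Without AMC 1, AMC 3, LAD 2 or LAD 3 fewer members had an unadjusted p under 0.05 than in the main fit.

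RIPC alone was compared with AMC for an effect of preconditioning without infarction. The 31 members were evenly split, with 17 higher, 14 lower and a median log2 fold change of 0.01. The edgeR test called 0 members, with 0.0% of all microRNAs called and a smallest adjusted p of 0.997, and DESeq2 called 0 (0.0% of all). MiR-3581 alone had an unadjusted p under 0.05 (1 member, beside 1.19% of all microRNAs and 0.395% higher), at a log2 fold change of 1.48 (SE 0.50), which was 0.80 without RIPC 2. MiR-3581 and miR-3579 were the 2 members higher in RIPC without overlap, where 6.72% of all microRNAs were. The lowest value was that of miR-3594-3p, at -1.66 (SE 0.79). Its RIPC counts were 1 and 5 and neither passed the threshold, so this value rests on background in RIPC. Any fit without a RIPC or a RIPC+LAD sample leaves that group with 1 sample and takes its spread from the other groups. Counts of members at an unadjusted p under 0.05 are therefore not given for such fits.

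In RIPC+LAD against AMC, miR-3590-5p stood apart from the other members. Its log2 fold change was -2.31 (SE 0.52), and its adjusted p in edgeR, 0.0998, was the smallest of all 253 microRNAs. DESeq2 called it (adjusted p = 0.00734) and no other microRNA, 0.395% of those tested. It was also the only call in edgeR without AMC 3 (adjusted p = 0.0193, 0.397% of those tested) or without LAD 1 (adjusted p = 0.0456, 0.408%). Of the 22 alternatives for miR-3590-5p in this comparison, these 3 called it and 19 did not. Fits without RIPC+LAD 1 or RIPC+LAD 2 leave that group with 1 sample, so their p-values are not given. The log2 fold change of miR-3590-5p stayed between -2.72 and -1.79. The other arm of its hairpin, miR-3590-3p, stood at -0.76 (SE 0.71). MiR-3589 stood at -1.91 (SE 0.70), miR-3596c at -1.15 (SE 0.47) and miR-3571 at -1.39 (SE 0.59).

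Those 4 were the members with an unadjusted p under 0.05 in this comparison, beside 8.7% of all microRNAs and 4.74% lower, and edgeR called 0 members where 0.0% of all were called. Over the 31 members 6 were higher and 25 lower, with a median of -0.45 against -0.01 over all 253. Without overlap 9 members were lower, where 13.8% of all microRNAs were, and 1, miR-3586-5p, was higher, where 17.0% were. The Negative probes moved by -0.38 and the members below the detection rule by -0.42. Without AMC 1 fewer members had an unadjusted p under 0.05. MiR-3589 stood at -2.72 without RIPC+LAD 1 and at -1.41 without RIPC+LAD 2. Adjusting for the ligation control turned miR-3571 to 0.055 and brought miR-3589 to -0.36, miR-3596c to -0.19 and miR-3590-5p to -1.79.

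The comparison of RIPC+LAD with LAD asks what preconditioning before the ligation adds, and it held the broadest shift of the members. All 10 members with an unadjusted p under 0.05 were lower in RIPC+LAD, beside 9.88% of all microRNAs lower and 17.4% in either direction. They were miR-3592 at a log2 fold change of -2.06 (SE 0.53), miR-3590-5p at -1.89 (SE 0.53), miR-3589 at -2.33 (SE 0.71), miR-3596c at -1.57 (SE 0.48) and miR-3593-5p at -1.21 (SE 0.39), each with an adjusted p of 0.114 in edgeR, followed by miR-3571, miR-3569, miR-3578, miR-3579 and miR-3573-5p at -1.68 to -1.04. None passed the adjusted threshold (0 members, with 0.0% of all microRNAs called), and DESeq2 called 0 (0.0% of all).

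Groups did not overlap for 14 members, all lower in RIPC+LAD, where 19.4% of all microRNAs were lower without overlap. Of the 31 members 27 were lower and 4 higher, with a median of -0.84 against 0.02 over all 253. With no detection filter the median over all 65 members was -0.71. The Negative probes moved by -0.51 and the 34 members below the detection rule by -0.92, so probes at background moved with the detected ones. With the Negative mean of each sample subtracted the members' median was -1.24. A count of 1, the lowest in the file, scales to a larger value in a shallow sample. Members at 1 before subtraction numbered 8, 13 and 25 in LAD and 16 and 14 in RIPC+LAD. The subtracted medians here and in LAD against AMC are therefore not free of depth. The share of choroid plexus and ciliated cell microRNAs and that of oligodendrocyte microRNAs were also low in RIPC+LAD (1.86% to 2.06% and 0.982% to 1.76%). The leukocyte list made up 1.12% to 1.44% in RIPC+LAD and 1.77% to 1.93% in LAD. The erythrocyte list made up 0.0118% to 0.0136% and 0.0166% to 0.0490% in the same order. The vessel and neuronal shares in RIPC+LAD lay within the LAD range. The part of cell types was not tested.

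A single ligation control probe (LIG_POS_A), relative to the strongest positive control, stood at 111% and 172% in RIPC+LAD, 24.3% to 54.4% in LAD, 38.9% to 85.6% in AMC and 38.4% and 79.2% in RIPC. The positive control itself counted 6725 and 7264 in RIPC+LAD and 7049 to 14579 in the other samples. No other sample reached the RIPC+LAD ratios, so ratio and group cannot be told apart. With this ratio as a covariate the members' median in RIPC+LAD against LAD was -0.25, fewer members had an unadjusted p under 0.05, and miR-3571 turned to 0.20. MiR-3589 then stood at -0.25, miR-3596c at -0.23 and miR-3593-5p at -0.21, while miR-3590-5p stood at -1.24 and miR-3592 at -2.19. Both RIPC+LAD samples, LAD 2, LAD 3 and RIPC 1 had low positive control counts, and within those 5 samples the median was -1.11. Without LAD 2 and LAD 3 it was -0.63. RIPC is 1 sample in the former fit and LAD in the latter, and the other groups give the spread.

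**Figure D3:**
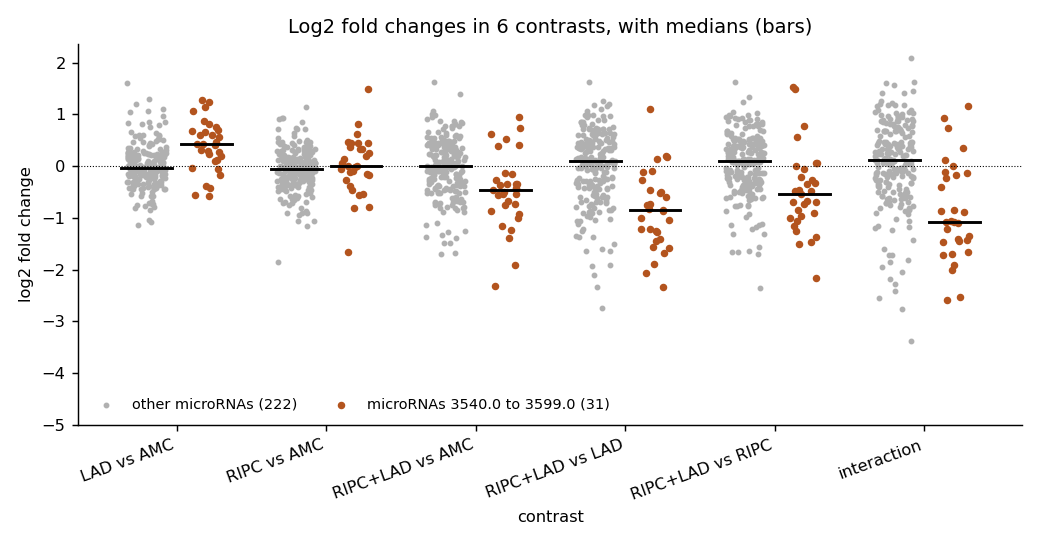
Log2 fold change of the 31 detected members (brown) and the other 222 detected microRNAs (grey) in each contrast, with medians (bars). The members' median lies at 0.42 in LAD vs AMC, at -0.84 in RIPC+LAD vs LAD and at -1.08 in the interaction, while the others stay near 0.

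RIPC+LAD was set against RIPC for the effect of ligation in preconditioned animals. MiR-3589 (log2 fold change -2.17, SE 0.73), miR-3590-5p (-1.51, SE 0.55) and miR-3592 (-1.47, SE 0.57) were the 3 members with an unadjusted p under 0.05, beside 6.72% of all microRNAs and 3.95% lower. The edgeR test called 0 members (0.0% of all microRNAs) and DESeq2 called 0 (0.0% of all). Fitted on these groups alone, edgeR called miR-3590-5p (adjusted p = 0.0351), where 3.16% of all microRNAs were called. Of the 23 alternatives for miR-3590-5p in this comparison, this was the 1 that called it, and 22 did not.

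In the same comparison 25 of the 31 members were lower and 6 higher, with a median of -0.54 against 0.07 over all 253. Lower without overlap were 9 members, where 21.7% of all microRNAs were, and higher without overlap were miR-3553, miR-3586-5p and miR-3594-3p, where 27.3% were. No RIPC sample passed its threshold for miR-3553, miR-3586-5p or miR-3594-3p. Both RIPC samples differed widely. Without RIPC 2 the median was -0.18, miR-3589 stood at -0.69, miR-3590-5p at -0.81 and miR-3592 at -1.13. Without RIPC 1 miR-3590-5p stood at -2.05 and miR-3592 at -1.81.

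The interaction asks whether the ligation effect differs with preconditioning. For 26 of the 31 members the ligation effect was lower in preconditioned animals and for 5 it was higher, with a median difference of -1.08 against 0.05 over all 253. The same difference was -0.41 for the Negative probes and -0.76 for the 34 members below the detection rule. At an unadjusted p under 0.05 there were 8 members, all negative, beside 7.91% of all microRNAs negative and 12.3% in either direction. MiR-3592 stood at -2.54 (SE 0.70; adjusted p = 0.297 in edgeR), miR-3589 at -2.59 (SE 0.89), and miR-3581, miR-3569, miR-3578, miR-3596c, miR-3579 and miR-3593-5p were closer to 0, the last of them at -1.35 (SE 0.54).

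MiR-3590-5p was not among them, at -1.09 (SE 0.69). The edgeR test called 0 members for the interaction (0.0% of all microRNAs), and DESeq2 called 0 (0.0% of all). Without RIPC 2 the median was -0.66, with miR-3589 at -1.12, miR-3569 at -0.84, miR-3578 at -0.41 and miR-3590-5p at -0.39, and miR-3592 at -2.19. Without RIPC 1 miR-3578 stood at -2.46 and miR-3592 at -2.89. Adjusted for the ligation control the median was -0.14, with miR-3589 at -0.45 and miR-3592 at -2.67. Fewer members then had an unadjusted p under 0.05.

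Across all 4 groups in a single test, miR-3590-5p, miR-3592, miR-3589, miR-3593-5p, miR-3596c and miR-3581 had an unadjusted p under 0.05, 6 members beside 8.7% of all microRNAs. The smallest adjusted p was 0.326 for miR-3590-5p in edgeR, so 0 members were called (0.0% of all microRNAs), and DESeq2 called 0 (0.0% of all). Without LAD 3 fewer members had an unadjusted p under 0.05. These contrasts share samples, so their values are given side by side and are not separate evidence.

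The members were also grouped by location for RIPC+LAD against LAD, with no test between locations. Of the 9 opposite-strand members between Dlk1 and Dio3, 6 were detected in 2 or more samples, and all 6 were lower in RIPC+LAD than in LAD, with a median log2 fold change of -0.78. Of the other 21 opposite-strand members 11 were detected, of which 9 were lower, with a median of -0.87. Of the 33 members that face no microRNA gene 12 were detected, of which 11 were lower, with a median of -0.92. Both detected arms of miR-3586, without a location here, were split. Detection was reached by 56.7% of the opposite-strand members and by 36.4% of those that face no microRNA gene.

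For 29 opposite-strand members a panel probe was matched to the facing gene. MiR-3597-5p, opposite miR-9a, was left without a match although the panel holds a miR-9 probe. Most panel names give no arm, so which arm such a probe reads is not given. MiR-130a gave counts of 309, 281 and 382 in AMC, 233 and 243 in RIPC, 391, 124 and 99 in LAD and 153 and 141 in RIPC+LAD. MiR-130a and miR-3590-5p were both lower in RIPC+LAD than in AMC by fitted value, miR-130a at a log2 fold change of -0.88 (SE 0.30; adjusted p = 0.426 in edgeR). The count of miR-3590-5p was 9.15% and 9.22% of that of miR-130a in RIPC+LAD, and 10.3% to 37.5% in the other samples.

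MiR-3596c did not move with let-7e in this way. In RIPC+LAD against AMC the log2 fold change was -1.15 for miR-3596c and 0.09 (SE 0.31) for let-7e. Counts of let-7e were 2150, 2445 and 1938 in AMC, 2137 and 1215 in RIPC, 1784, 684 and 645 in LAD and 1817 and 2070 in RIPC+LAD, and its log2 fold change in RIPC+LAD against LAD was 0.39 (SE 0.31), where that of miR-3596c was -1.57. The count of miR-3596c was 0.440% and 0.531% of that of let-7e in RIPC+LAD and 0.702% to 2.33% elsewhere. All 8 let-7 and miR-98 probes were detected in every sample, and in RIPC+LAD against LAD 5 were higher and 3 lower, with a median of 0.07. The miR-3596b count reached at most 0.514% of that of let-7d.

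Several members were detected where the probe of the facing gene was not. MiR-3546, at a mean count of 11.2, passed in 7 samples, while the miR-208 probe stood at 1 in every sample. MiR-3589 passed in 6 samples, while the miR-505 probe passed in none. MiR-3563-5p passed in 8 samples and the miR-299 probe in none. Because miR-3563-5p equals miR-299a-5p at every base but its first, its counts cannot be assigned to either gene alone. MiR-3571 passed in 8 samples at a mean of 10.9, beside 5 samples and a mean of 7.9 for miR-1. The reverse was seen for miR-3570 and miR-3543, which passed in no sample opposite miR-181a and miR-434 with mean counts of 3420 and 1689. MiR-3570 is complementary to miR-181a-1-3p, and the name of the miR-181a probe gives neither arm nor gene copy. Over the 11 pairs in which both probes were detected in 2 or more samples, the correlation of log2 CPM over the 10 samples ran from -0.53 (miR-3592 and miR-382) to 0.56 (miR-3590-5p and miR-130a), with a median of -0.13 and 4 above 0. The points of each correlation share library and depth.

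**Figure D4:**
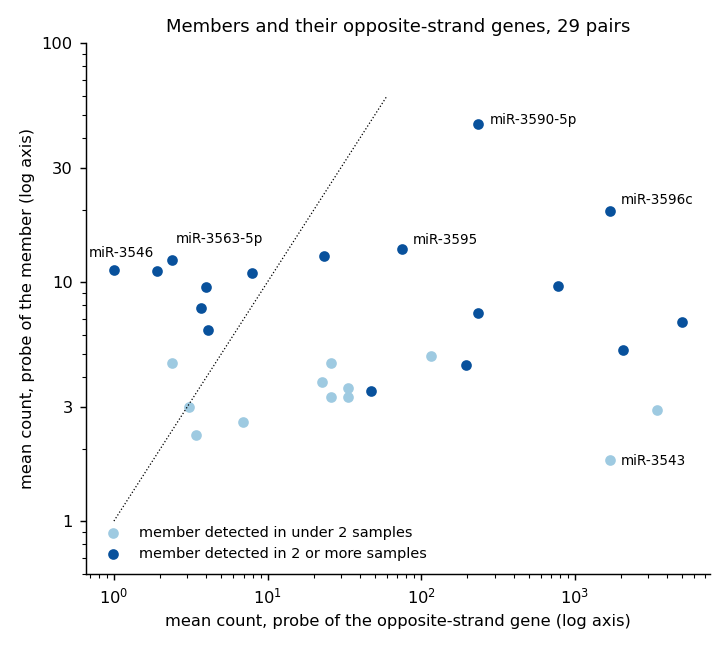
Mean count over 10 samples of each member against that of the probe of its opposite-strand gene (29 pairs, both axes log; the dotted line marks equal counts). In 21 pairs the facing gene's probe gave the higher count, and detected members (dark) occur over the whole range of facing counts, from 1.0 for miR-3546 to 4981 for miR-3596b.

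By Pearson correlation of log2 CPM over the 10 samples, the pattern of miR-3590-5p was most like those of miR-449c-3p (r = 0.87), miR-465 (r = 0.86) and miR-3596b (r = 0.82). MiR-3589 was most like miR-455 (r = 0.98), miR-465 (r = 0.95) and miR-449c-3p (r = 0.92), and miR-3596c most like miR-871 (r = 0.90), miR-411 (r = 0.89) and miR-30c (r = 0.87). Some members were nearest to each other. MiR-3569 and miR-3578 had r = 0.95, miR-3594-5p and miR-3595 had r = 0.89, and miR-3593-5p and miR-3573-5p had r = 0.91. MiR-3592 was most like miR-27a (r = 0.86) and then miR-3569 (r = 0.84). These values describe likeness over 10 samples that share depth and background.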

How the data were processed

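The authors deposited whole-number counts per probe from the NanoString nCounter rat microRNA assay, in which ligated microRNAs are counted by barcode without amplification, and a table of log2 values. In the 148 of its 150 rows that matched a probe by name, each deposited log2 value was that of the count rescaled to 100000 microRNA counts per sample, within 5.0e-09. The counting software was not given in the sources used here. No zero occurs and 1 is the lowest count. The 253 microRNAs detected in 2 or more samples were scaled by TMM (trimmed mean of M values). All 10 samples entered 1 quasi-likelihood fit (edgeR 4.0.16, R 4.3.3). Two-sided p-values were adjusted by Benjamini-Hochberg over all 253 (threshold 0.05). SE was derived as |log2 fold change| / √F. Log2 CPM used a prior count of 2. DESeq2 1.42.0 and limma 3.58.1 served as alternatives, with other scalings, filters, covariates and each sample left out. The test was tested on simulated data. Replicates of a group gave chi-square values of 4.88 to 28.3 per degree of freedom over probes. The lowest value of any pair was 3.77, between AMC 3 and LAD 2, so no sample repeated another.

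Members and lists were chosen with earlier results of these data known. Named members were those called, otherwise the 10 with the smallest p, and the 6 with the highest level. Those singled out beyond this rule were chosen after their values were seen. Sequences and locations are from RefSeq (GRCr8).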

Additional observations from a re-analysis of the deposited data

How the results depend on the processing

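Of the alternatives run, these changed the number of members called. For RIPC+LAD against AMC it was 1 (miR-3590-5p) with DESeq2, and 0 to 1 when a sample was left out, with 1 without AMC 3 or LAD 1. For RIPC+LAD against RIPC it was 1 (miR-3590-5p) when only these groups were fitted. It was 0 otherwise. The members detected numbered 31 under the main rule, 19 above the mean plus 3 SD of the Negative probes, 17 when every sample of a group had to pass, and 24 to 31 when a sample was left out. MiR-3571 turned from -1.39 to 0.055 in RIPC+LAD against AMC, and from -1.68 to 0.20 against LAD, with the ligation control as a covariate. Over 30 pairs of a named member and a comparison, 2 of 649 alternative values, those of miR-3571, turned direction and 4, all of miR-3590-5p, passed the threshold. No pair was called in the main analysis, so staying uncalled shows no stability, and sizes moved more (miR-3589 from -2.33 to -0.25 and miR-3596c from -1.57 to -0.23 in RIPC+LAD against LAD with that covariate). The causes were not tested.

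With scaling to the top 100 microRNAs, the median log2 fold change of all microRNAs shifted by 0.14 in LAD against AMC, -0.19 in RIPC+LAD against LAD, -0.12 in RIPC+LAD against RIPC and -0.27 in the interaction. Omitting the TMM factor moved it by -0.13, -0.19 and -0.22 in the last 3. The members' median relative to all stayed at -0.86 to -0.87 in RIPC+LAD against LAD under both and was -1.17 with the Negative mean subtracted, which took the members' median in RIPC+LAD against RIPC from -0.54 to -0.84. Fits without LAD 2 and LAD 3, or within a positive control set, were chosen after seeing the data. No paired analysis was possible because replicate numbers follow accession order and name samples only. Depth limits most members, whose counts lie near the Negative probes.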
